A study of Mus musculus with 18 samples.

Results

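The Ube2h to Podxl block is a set of 10 protein-coding genes on mouse chromosome 6, from the start of Ube2h at 30211288 to the end of Chchd3 at 33037211 (GRCm39). Its members are Ube2h, Zc3hc1, Klhdc10, Tmem209, Cep41, Mest, Copg2, Mkln1, Podxl and Chchd3, in map order, and all 10 were found among the 57126 genes counted. They were chosen by measured values: the level of each gene in each of 18 mammary tumors, set against the median of that gene over the 18 tumors, had shown tumors of different genotype in which these neighbours stood high together. The ratios that chose them are therefore given as a description, with no test.

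The tumors came from female mice of a somatic breast cancer model, BALB/c by C57BL6/J F1 hybrids, in which adenovirus carrying Cre recombinase was injected into the mammary duct. Recombination there replaced wild-type Trp53 in ductal cells by a missense allele over a null allele, or by 2 null alleles, while the stroma kept wild-type Trp53. There were 7 MaP R172H/- tumors, 5 MaP R245W/- tumors and 6 MaP -/- tumors, and the 6 MaP -/- tumors came from 4 mice. A Rosa26 LSL-TdTomato/+ reporter was also carried by YZ2, YZ6 and YZ10 among the first and by JM1233, JM1564 and RM0014 among the second. Each sample was a piece of bulk tumor taken at tumor burden, so fewer cells of a type and less RNA per cell cannot be told apart in any value below. The sources differ on which tumor of mice JM779 and JM836 was sequenced, and tumors are named as the labels give them.

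The 10 genes have several roles in the cell. Ube2h encodes a ubiquitin-conjugating enzyme that works with the CTLH ubiquitin ligase, of which muskelin, the product of Mkln1, is a subunit, and Klhdc10 encodes a substrate receptor of CUL2 ligases. Copg2 encodes a gamma subunit of the COPI coat, which carries cargo back from the Golgi to the endoplasmic reticulum, and Podxl encodes podocalyxin, a sialomucin of the cell surface related to CD34. Zc3hc1 encodes a component of the nuclear basket, Tmem209 a protein of the nuclear envelope, and Cep41 a centrosomal protein needed for polyglutamylation of tubulin in cilia. Chchd3 encodes a core subunit of MICOS, the complex that shapes mitochondrial cristae. Mest is imprinted, with expression from the paternal copy, and is known for high levels in growing tissue and in expanding fat.

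On chromosome 6 of GRCm39 the first 5 members were Ube2h (ENSMUSG00000039159.17, 30211288 to 30304564, minus strand), Zc3hc1 (ENSMUSG00000039130.19, 30366372 to 30391056, minus strand), Klhdc10 (ENSMUSG00000029775.15, 30401861 to 30455188, plus strand), Tmem209 (ENSMUSG00000029782.21, 30479052 to 30509809, minus strand) and Cep41 (ENSMUSG00000029790.17, 30653456 to 30693759, minus strand). They were followed by Mest (ENSMUSG00000051855.16, 30723546 to 30752058, plus strand), Copg2 (ENSMUSG00000025607.16, 30741505 to 30873729, minus strand), Mkln1 (ENSMUSG00000025609.16, 31375670 to 31493746, plus strand), Podxl (ENSMUSG00000025608.10, 31496418 to 31540924, minus strand) and Chchd3 (ENSMUSG00000053768.14, 32762883 to 33037211, minus strand). The ends of Mest and Copg2 overlap on opposite strands, as do the starts of Mkln1 and the noncoding Mkln1os. The library kit keeps strand, but the strand setting of the counting is not given in the sources used here, so reads of a shared stretch may be counted to either gene. The other 48 annotated genes of the interval with a row in the counts were mostly noncoding: 9 were protein-coding, and 7 of these 9 averaged under 1 CPM, that is, 1 count in 1000000 counts of a library after scaling.

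RefSeq promoter windows, which run from 250 bases before a transcript start to 50 after it, were matched for 9 of the 10 members by symbol, and all 13 windows lay at 1 place on chromosome 6 of GRCm39 by exact match. The table that holds them was made on GRCm38.p6. The windows of Ube2h, Cep41, Copg2, Mest and Chchd3 are shown as examples from the start, the middle and the end of the block. Capitals mark the GC box, GGGCGG, and the CCAAT box, CCAAT, on either strand, and no match of one overlapped the other in the windows shown.
Ube2h, chr6:30304489-30304788, minus strand: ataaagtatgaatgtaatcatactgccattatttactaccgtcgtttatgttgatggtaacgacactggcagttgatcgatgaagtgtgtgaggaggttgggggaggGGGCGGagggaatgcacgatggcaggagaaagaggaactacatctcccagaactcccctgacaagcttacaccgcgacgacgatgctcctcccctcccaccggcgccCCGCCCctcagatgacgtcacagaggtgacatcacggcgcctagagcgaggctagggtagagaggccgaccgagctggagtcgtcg
Cep41, chr6:30693699-30693998, minus strand: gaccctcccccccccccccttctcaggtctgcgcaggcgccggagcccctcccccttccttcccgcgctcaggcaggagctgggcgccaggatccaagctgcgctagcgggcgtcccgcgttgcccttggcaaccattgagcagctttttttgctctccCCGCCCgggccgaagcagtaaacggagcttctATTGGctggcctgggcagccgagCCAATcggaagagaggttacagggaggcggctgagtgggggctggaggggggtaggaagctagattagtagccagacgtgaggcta
Copg2, chr6:30873680-30873979, minus strand: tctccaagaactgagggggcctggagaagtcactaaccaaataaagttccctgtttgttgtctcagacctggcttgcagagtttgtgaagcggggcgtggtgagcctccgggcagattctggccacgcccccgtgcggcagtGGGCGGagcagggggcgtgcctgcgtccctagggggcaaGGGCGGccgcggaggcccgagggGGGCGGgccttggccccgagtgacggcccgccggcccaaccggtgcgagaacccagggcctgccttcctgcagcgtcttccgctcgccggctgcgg
Mest, chr6:30737799-30738098, plus strand: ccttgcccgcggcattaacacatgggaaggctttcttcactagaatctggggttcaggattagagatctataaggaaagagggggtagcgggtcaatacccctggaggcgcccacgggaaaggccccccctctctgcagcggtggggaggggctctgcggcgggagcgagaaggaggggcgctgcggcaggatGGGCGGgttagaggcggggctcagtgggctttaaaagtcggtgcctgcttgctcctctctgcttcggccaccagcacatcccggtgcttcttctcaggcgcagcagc
Chchd3, chr6:33037146-33037445, minus strand: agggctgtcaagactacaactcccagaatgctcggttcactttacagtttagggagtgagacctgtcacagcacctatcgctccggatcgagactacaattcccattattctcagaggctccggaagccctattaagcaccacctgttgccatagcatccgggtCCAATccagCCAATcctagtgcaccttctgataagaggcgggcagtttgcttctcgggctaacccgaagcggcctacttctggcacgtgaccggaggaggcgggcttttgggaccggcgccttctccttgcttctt
A GC box was present in a window of 6 of the 9 matched members and in 35.7% of 32851 RefSeq mouse promoter windows of 300 bases. A CCAAT box was present for 4 of the 9 and in 37.4% of all windows. Members were counted by gene, over any of their 13 windows, and the background by window, so these shares are not in the same unit. The windows of the members held between 4 and 25 CG pairs, against a median of 7 over all windows. These are matches of letters and describe the windows only.

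Library totals ran from 23113578 to 37365062 counts, and the lowest count of any member in any tumor was 164 (Cep41 in JM663-T2), with an exact 95% Poisson interval of 139.9 to 191 that covers counting error only. Trp53 was measured at 10.8, 45.8 and 50.3 CPM (lowest, median and highest) in the 7 MaP R172H/- tumors, at 9.09, 27.1 and 59.0 CPM in the 5 MaP R245W/- tumors and at 9.43, 12.2 and 21.6 CPM in the 6 MaP -/- tumors. YZ11 and JM1233, which are labelled as missense tumors, lay within the MaP -/- range, RM0014, also labelled as one, was at 9.09 CPM and just below it, and JM833-T2 was the highest of the MaP -/- tumors. All MaP R172H/- libraries were sequenced on a HiSeq4000 and all others on a NovaSeq 6000, so instrument and R172H genotype cannot be told apart. The authors also classed all MaP R172H/- tumors as luminal B or HER2-enriched, and all others as triple-negative. Molecular subtype and R172H genotype therefore cannot be told apart either. The luminal markers Krt8, Krt18, Krt19, Epcam and Cdh1 had counts in all 18 tumors, with summed levels from 140 to 8054 CPM.

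YZ6, JM1564 and JM833-T2, 1 tumor of each genotype, raised the block, where a tumor was said to raise it when at least 8 of the 10 members were at 1.5 times their 18-tumor median or more. In YZ6 (MaP R172H/-) 9 of 10 members reached this, with a median ratio of 3.73. In JM1564 (MaP R245W/-) all 10 did, with a median ratio of 5.71. In JM833-T2 (MaP -/-) 9 of 10 did, with a median ratio of 11.5. Of 22480 genes in the tested set with a median above 0, 15.1% were at 1.5 times their median or more in YZ6, 19.2% in JM1564 and 23.5% in JM833-T2, and since the rule chose the members on these ratios nothing is read from the gap.

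The other 15 tumors had median ratios of the members between 0.516 (JM1233) and 1.72 (RM0014). RM0014, a MaP R245W/- tumor, was the nearest below the rule, with 7 of 10 members at 1.5 times or more. At the lower ratio tried it had 8 and would count as a tumor that raised the block. YZ11 came next, with 4 members (Cep41, Copg2, Mkln1 and Podxl) and a median ratio of 0.979. JM833-T1, from the same mouse as JM833-T2, had no member at 1.5 times or more and a median ratio of 0.855, so tumors of 1 mouse differed. The raised tumors were sequenced on both instruments.

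**Figure D1:**
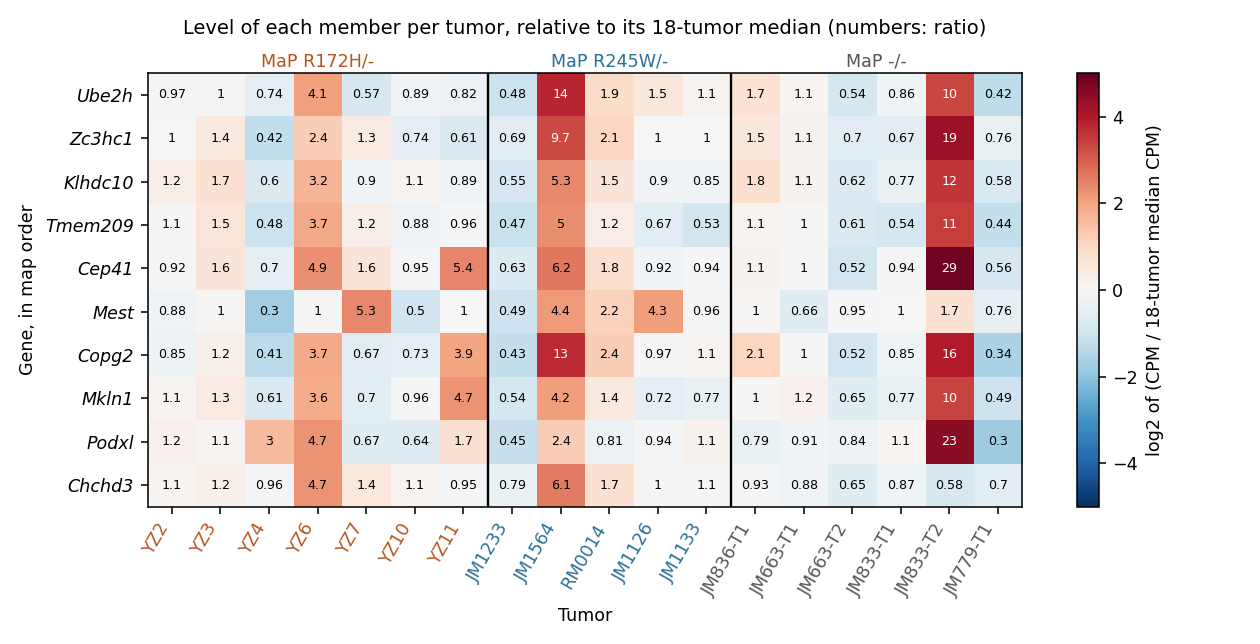
Ratio of each member's CPM to its median over the 18 tumors (number in each cell; color, log2 of the ratio), with genes in map order down the side and tumors along the bottom, colored and split by genotype. The columns of YZ6, JM1564 and JM833-T2 stand out, Mest is at 1.03 in YZ6, Chchd3 is at 0.58 in JM833-T2, and YZ11 is raised only from Cep41 to Podxl with Mest left at its median.

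Together the 10 members took 0.392% of all counts in YZ6, 0.683% in JM1564 and 1.40% in JM833-T2, against 0.0472% to 0.224% in the other 15 tumors. The highest of those 15 was YZ11. The height of the members relative to each other was not the same in the 3 tumors. The most raised member was Cep41 in YZ6 (4.90 times its median) and in JM833-T2 (28.9 times), but Ube2h in JM1564 (13.9 times). The least raised was Mest in YZ6 (1.03), Podxl in JM1564 (2.35) and Chchd3 in JM833-T2 (0.579). The SD of the members' log2 ratios was 0.674 in YZ6, 0.791 in JM1564 and 1.77 in JM833-T2.

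Per kilobase of annotated exon, median levels over the 18 tumors placed Ube2h first at 23.5 CPM per kb. Podxl (14.8), Klhdc10 (14.0) and Chchd3 (13.9) came next, then Copg2 (9.70), Mkln1 (9.06), Tmem209 (8.41), Zc3hc1 (7.84), Mest (2.41) and Cep41 (1.90). The ranges over the tumors of each pair of neighbours in this order overlapped. In JM833-T2 the order was led by Podxl at 333 CPM per kb, followed by Ube2h at 240, and in JM1564 by Ube2h at 326 followed by Copg2 at 128.

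Among the ubiquitin system genes, Ube2h was measured at 70.5, 2039, 280, 215 and 161 CPM in JM1233, JM1564, RM0014, JM1126 and JM1133. Its lowest, median and highest levels were 83.5, 131 and 609 CPM over the 7 MaP R172H/- tumors, with YZ6 the highest, and 61.7, 144 and 1499 CPM over the 6 MaP -/- tumors, with JM833-T2 the highest. All 3 raised tumors were above every other tumor, the highest of which was RM0014. Mkln1, the CTLH subunit, was at 1041 CPM in YZ6, 1209.7 in JM1564 and 2978 in JM833-T2, and the other tumors ran from 140 CPM in JM779-T1 to 1345 CPM in YZ11. Of the raised tumors, JM833-T2 was thus the one that lay above YZ11. Klhdc10, the CUL2 receptor, was at 382 CPM in YZ6, 628 in JM1564 and 1427 in JM833-T2, against 65.6 to 209 CPM in the other 15 tumors, which it did not overlap.

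The genes of the nuclear envelope and centrosome followed the same tumors. Zc3hc1 was at 102 CPM in YZ6, 420 in JM1564 and 832 in JM833-T2, and at 18.2 to 88.4 CPM elsewhere. Tmem209 was at 331 CPM in YZ6, 444 in JM1564 and 982 in JM833-T2, and at 39.5 to 136 CPM elsewhere. For both genes the 3 raised tumors lay above all others, YZ6 by the smallest margin. Cep41 had low levels, of 7.29, 16.1 and 56.3 CPM (lowest, median and highest) in MaP R172H/- tumors and 5.41, 10.3 and 299 CPM in MaP -/- tumors. In the MaP R245W/- tumors JM1233, JM1564, RM0014, JM1126 and JM1133 it was at 6.51, 63.6, 18.2, 9.53 and 9.70 CPM. Its highest MaP R172H/- tumor was YZ11 and not YZ6, which had 50.7 CPM.

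The trafficking and cell surface genes were high in the 3 tumors, but different tumors came next. Copg2, the COPI subunit, was at 47.1, 1433, 257, 105 and 120 CPM in JM1233, JM1564, RM0014, JM1126 and JM1133, at 44.3, 91.8 and 424 CPM (lowest, median, highest) in MaP R172H/- tumors and at 36.3, 102 and 1712 CPM in MaP -/- tumors. YZ11 had 424 CPM and YZ6 405 CPM, so JM1564 and JM833-T2 alone were above all of the 15 other tumors. Podxl was at 36.9, 191, 65.6, 76.5 and 92.5 CPM in the same 5 MaP R245W/- tumors, at 51.7, 94.4 and 383 CPM in MaP R172H/- tumors and at 24.0, 71.3 and 1834 CPM in MaP -/- tumors. YZ4 had 246 CPM of Podxl, above JM1564, while its other 9 members were at 0.302 to 0.958 times their medians.

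Podxl is also made by endothelium. The 6 endothelial markers Pecam1, Cdh5, Kdr, Tek, Emcn and Cldn5 summed to 158 to 252 CPM in MaP R172H/-, 132 to 559 in MaP R245W/- and 233 to 473 in MaP -/- tumors, and none was at 0 in YZ6, JM1564 or JM833-T2. Their sum was 302 CPM in JM833-T2, where Podxl was at 1834 CPM, and 473 CPM in JM833-T1, where Podxl was at 86.2 CPM.

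Chchd3, the MICOS gene at the far end of the interval, was high in only 2 of the 3 tumors. It was at 439.7 CPM in YZ6, 572 CPM in JM1564 and 54.0 CPM in JM833-T2, which was the lowest of all 18 tumors. The remaining MaP R172H/- tumors had 88.8 to 134 CPM, the remaining MaP R245W/- tumors 73.2 to 157 CPM and the remaining MaP -/- tumors 60.5 to 87.1 CPM. The MaP R172H/- and MaP -/- tumors did not overlap for this gene, which no other member showed in any pair of genotypes.

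Mest, the imprinted gene inside the block, did not follow its neighbours in YZ6, YZ11 and JM833-T2. In YZ6 it was at 20.03 CPM while Cep41 and Copg2 on either side were 4.90 and 3.74 times their medians, and in YZ11 it was at 19.5 CPM while they were 5.45 and 3.91 times theirs. In JM833-T2 it was at 33.01 CPM, 1.70 times its median, between neighbours at 28.9 and 15.8 times. It was high with them in JM1564, at 85.2 CPM and 4.38 times its median, and in RM0014, where Cep41, Mest and Copg2 were at 1.76, 2.23 and 2.38 times. Its highest level, 102 CPM, was in YZ7, where the other 9 members were at 0.568 to 1.55 times their medians, and JM1126 had 83.4 CPM with no other member at 1.5 times. The fat markers Adipoq, Plin1, Cidec, Lep and Fabp4 summed to 3184 CPM in JM833-T1 and 331 CPM in JM833-T2, with Mest at 19.4 and 33.01 CPM, and to 11.2 CPM in JM1564, where Plin1 and Lep were at 0.

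**Figure D2:**
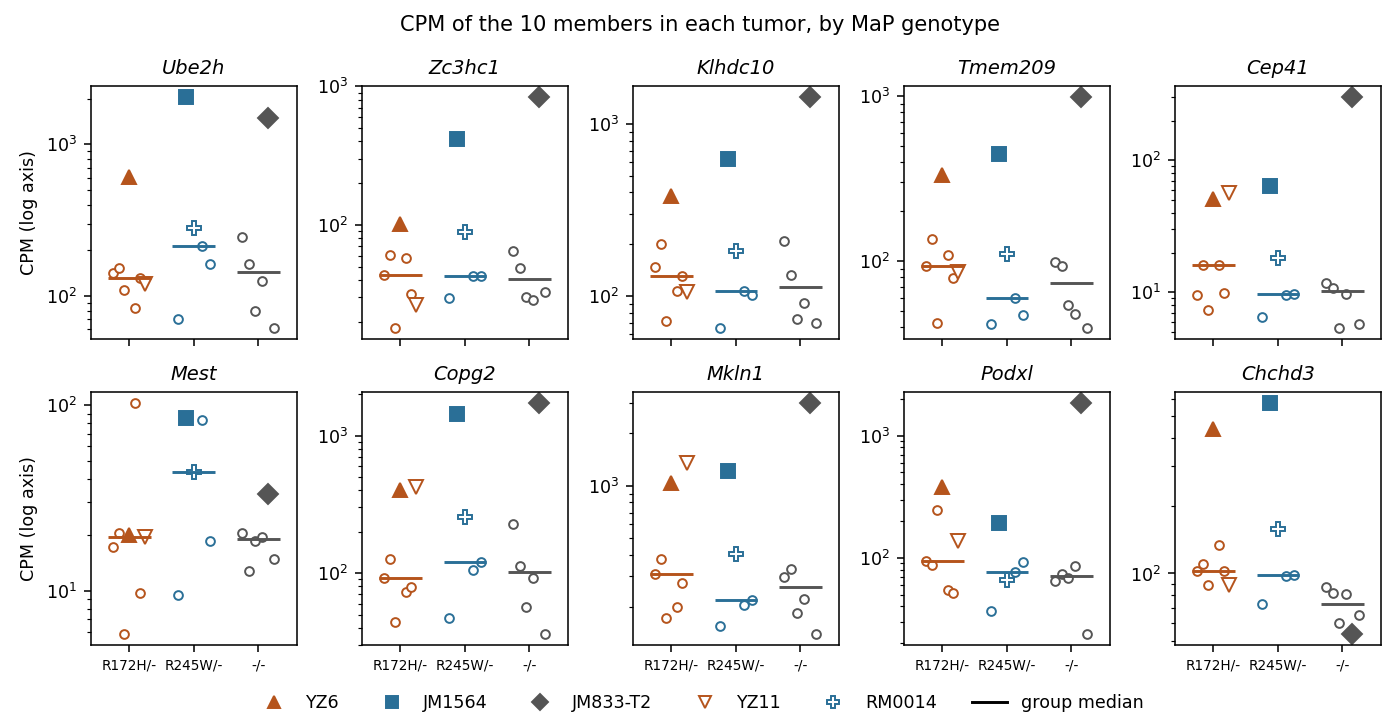
CPM of each member (log axis) in the 7 MaP R172H/-, 5 MaP R245W/- and 6 MaP -/- tumors, 1 symbol per tumor, with a line at each group's median and filled symbols for YZ6, JM1564 and JM833-T2. The filled symbols top their groups for most members, except Mest in YZ6, Chchd3 in JM833-T2 (lowest of all, 54.0 CPM), and Cep41, Copg2 and Mkln1 in the MaP R172H/- group, where YZ11 is highest.

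Most noncoding genes between Copg2 and Mkln1 were high in YZ6 and JM833-T2 and low in JM1564. Lncpint, a long noncoding RNA that is a p53 target, was at 2.46 times its median in YZ6, 4.17 in JM833-T2 and 2.88 in YZ11, but at 0.25 in JM1564. The unnamed transcripts within or near it were Gm27019, Gm13833, 5330406M23Rik, Gm56937, Gm37728, 2210408F21Rik and Gm43800. They had ratios of 1.84 to 4.97 in YZ6 and 2.82 to 7.14 in JM833-T2, and of 0.11 to 0.37 in JM1564. Gm13833, 5330406M23Rik, Gm56937 and Gm37728 lie within Lncpint, 2210408F21Rik overlaps it in part, and Gm43800 lies within 2210408F21Rik. Reads of these genes may be shared, so their ratios are not separate signals. Mkln1os, which is antisense to Mkln1, was at 4.49, 0.98 and 10.3 times its median in YZ6, JM1564 and JM833-T2. The processed pseudogene Gm13835 in the same stretch was at 0.89, 1.81 and 1.40 times its median in these tumors, and Klf14, an imprinted gene that averaged under 1 CPM, was at 5.87 CPM in JM1564 and under 1 CPM in all others. Both were named after their values were seen.

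Counting the 17 other genes of the interval with a mean of at least 1 CPM and a median of at least 0.1 CPM, 14 were at 1.5 times or more in YZ6, 5 in JM1564, 14 in JM833-T2 and 9 in YZ11. Several of the 17 overlap each other or a member, so these are not counts of separate signals. The 5 in JM1564 were Gm56999 (2.27), Gm13835 (1.81), Gm43154 (36.4), Gm14540 (4.24) and Gm42895 (5.05). Gm56999 lies within Copg2, and Gm14540 and Gm42895 lie within Chchd3, so their counts may include reads of those members. Gm43154, which follows Podxl, was at 194 times a median of 0.37 CPM in JM833-T2 and 10.05 times in YZ6. In JM1126, which did not raise the block, it was at 37.1 times, just above JM1564. Gm13848 and the carboxypeptidase gene Cpa4 had medians under 0.1 CPM and are not given as ratios. Plxna4, a semaphorin receptor between Podxl and Chchd3, was at 10.1 times its median in YZ6, 2.59 in JM833-T2 and 0.52 in JM1564. Its antisense genes Plxna4os1 and Plxna4os2 were at 8.94 and 0.59, 2.69 and 2.86, and 0.80 and 0.23 times in the same order. Plxna4 was highest in JM1126, at 44.5 times, and was also higher in JM836-T1 than in JM833-T2. Plxna4os2 was at 25.2 times in JM1126 and 12.7 in JM836-T1, while Plxna4os1 was highest in YZ6. Neither JM1126 nor JM836-T1 raised the block.

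The runs of raised coding genes that held a member ended at different genes in the 3 tumors. They were read along the coding genes with a mean of at least 1 CPM and a median of at least 0.1 CPM. Cpa4, between Tmem209 and Cep41, fell below that median and was left out. In YZ6 the run at 1.5 times or more that held Ube2h stopped at Cep41, where Mest at 1.03 broke it. A second run of 25 genes there went from Copg2 to Trim24 over 7.20 Mb. In JM1564 a run of 10 genes went from Nrf1 to Podxl over 1.49 Mb and a second of 3 genes from Chchd3 to Lrguk over 1.35 Mb. In JM833-T2 a single run of 10 genes went from Ube2h to Plxna4 over 2.35 Mb. Raised genes also lay past the end of that run, where Akr1b10, Bpgm and Cald1, the last 2 named after their values were seen, were at 11.1, 16.7 and 8.23 times their medians in JM833-T2. In YZ11 the longest was Copg2, Mkln1 and Podxl.

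The 5 nearest genes before the interval with a mean of at least 1 CPM were Smo, Ahcyl2, Strip2, Nrf1 and Rncr4. Nrf1, a regulator of nuclear genes for mitochondria, was at 1.04, 1.86 and 1.33 times its median in YZ6, JM1564 and JM833-T2, and the noncoding Rncr4 beside it at 6.81, 3.38 and 8.30 times. Smo, the transducer of Hedgehog signals, was at 2.0, 0.99 and 0.76 times, Ahcyl2 at 0.95, 0.87 and 1.17, and Strip2 at 1.68, 0.36 and 3.81. After the interval came Exoc4, of the exocyst, at 4.61, 1.93 and 0.81 times. Within Exoc4 lie Gm13854 (3.44, 3.59 and 1.72), Gm43168 (7.95, 0.97 and 0.80) and Gm43164 (5.06, 0.87 and 1.24). Lrguk (4.28, 2.93 and 4.26) came next, and was higher in YZ7 (5.79), RM0014 (5.24) and JM836-T1 (4.48). Exoc4 and Chchd3, which are neighbours, were both near or below their medians in JM833-T2 and both raised in the other 2 tumors.

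In windows of 2 Mb along chromosome 6, the median ratio reached 1.5 in 9 of 62 windows in YZ6 (14.5%), 17 in JM1564 (27.4%) and 7 in JM833-T2 (11.3%), and in 2 to 17 windows (3.23% to 27.4%) in the 15 others. The window from 30 to 32 Mb had a median ratio of 3.65 in YZ6, 2.27 in JM1564 and 7.14 in JM833-T2. In YZ11, which did not raise the block, it was at 2.42, above JM1564. This window holds every member except Chchd3, so it is not separate from the rule. The window before it, from 28 to 30 Mb, was at 1.15, 0.98 and 1.02 in YZ6, JM1564 and JM833-T2. The whole chromosome had a median ratio of 1.13, 1.16 and 1.02. The proto-oncogene Met, at lower coordinates of the same chromosome, was at 0.89, 0.60 and 0.27 times its median in the 3 tumors, and Tspan12 and Pot1a were at 21.5 and 4.75, 4.14 and 1.56, and 1.02 and 12.2 times. Tspan12 was highest in JM836-T1, which did not raise the block, at 25.2 times.

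**Figure D3:**
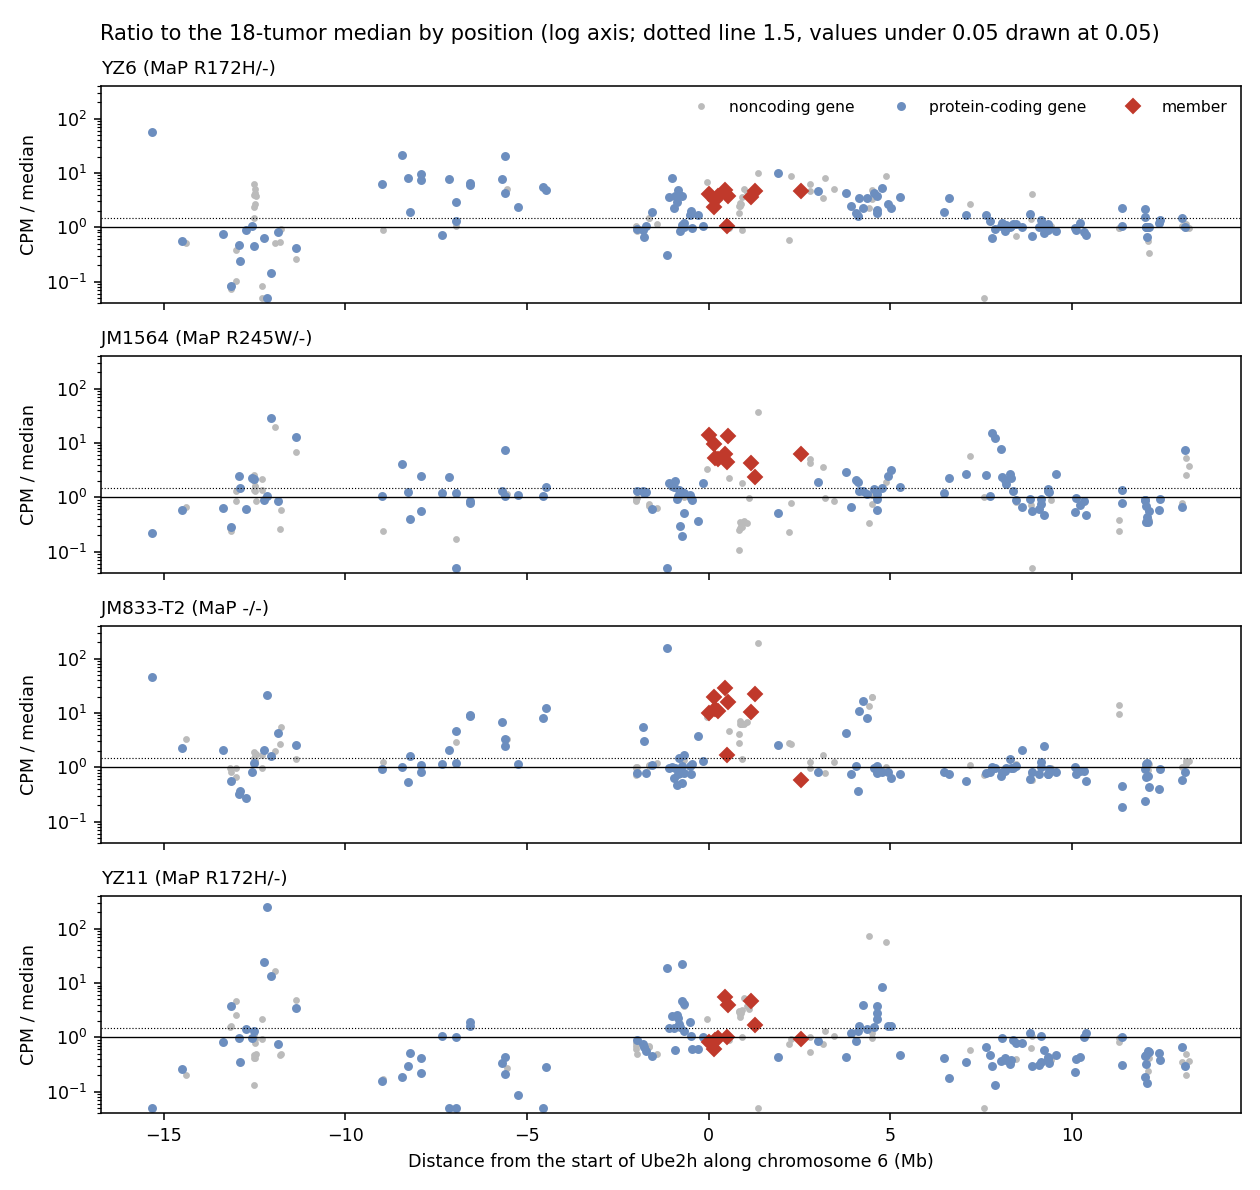
Ratio of genes to the 18-tumor median (log axis) against their distance in Mb from the start of Ube2h along chromosome 6, in YZ6, JM1564, JM833-T2 and YZ11. Genes shown have a mean of at least 1 CPM and a median of at least 0.1 CPM. Red diamonds are members, blue points other coding genes and gray points noncoding genes. The members stand above the line at 1 in the first 3 panels, the raised stretch runs on past Chchd3 in YZ6, and the member on the right falls to 0.58 in JM833-T2.

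The 5 genes of chromosome 6 outside the interval whose pattern over the 18 tumors was most like the members' median pattern were Akr1b10, Pot1a, Fam234b, Rncr4 and Mrpl19. Likeness was the root mean square difference of log2 ratios over 18 tumors, and was 0.65, 0.81, 0.81, 0.86 and 0.87 for these genes among 655 with a mean of at least 5 CPM. The members themselves were at 0.24 (Klhdc10) to 1.15 (Mest), so Akr1b10, an aldo-keto reductase gene, was nearer to the pattern than 5 of the 10 members. Each member is part of the median pattern, which draws its own value down, and the outside genes are not. Akr1b10 was at 3.42, 1.32 and 11.1 times its median in YZ6, JM1564 and JM833-T2, and Pot1a, which protects telomere ends, at 4.75, 1.56 and 12.2 times. On other chromosomes the nearest of 11848 genes were Asic1 (0.82), Cep78 (0.82), Slc29a2 (0.83), Wnk3 (0.83) and Dipk1b (0.85). These differences are a description over tumors that share their library normalization.

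The genes listed beside the members, called partner genes here, were mostly near their medians. The lists hold genes of proteins that work with a member's product, of surface proteins grouped with podocalyxin and, beside Mest, other imprinted genes. Of 49 partner genes with a median of at least 0.1 CPM, 2 were at 1.5 times or more in YZ6 (4.08%). In JM1564 11 were (22.4%) and in JM833-T2 3 were (6.12%), near or below the shares of all genes given above. Their median ratios were 0.982, 1.10 and 0.835. Of the 10 listed CTLH genes, none reached 1.5 times in YZ6 or JM833-T2 and 1 did in JM1564 (Rmnd5a, 2.44), and the ligase subunits Maea and Ranbp9 were at 0.95 and 0.69, 1.42 and 1.41, and 0.78 and 0.80 times. Of the 8 COPI genes beside Copg2, none did in YZ6 or JM833-T2 and 2 did in JM1564 (Copb1, 1.61, and Copz1, 2.01). Copg1, the paralog of Copg2, was at 1.29, 0.61 and 0.95 times its median. None of the 3 nuclear basket genes Tpr, Nup153 and Nup50 reached 1.5 times in any of the 3 tumors.

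Of the 10 MICOS genes, 5 were at 1.5 times or more in JM1564: Immt (2.65), Chchd6 (3.57), Micos13 (2.16), Samm50 (1.72) and Mtx2 (1.86). Immt and Chchd6 lie on chromosome 6. YZ7, which did not raise the block, also had 5 of 10 at 1.5 times or more, with a median ratio of 1.64 against 1.59 in JM1564. None of the 10 was in YZ6, where Chchd3 was also high. Of the CUL2 genes, Cul2 (1.73) and Rbx1 (1.55) reached 1.5 times in JM1564 and none in the others. Of the podocalyxin family and its partners, Nherf1 (1.55) did in YZ6 and none in the others, and Cd34 was at 0.66, 0.35 and 1.06 times. Ttll6, for tubulin polyglutamylation, had a median under 0.1 CPM.

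Of 9 measured imprinted genes set beside Mest, Dlk1 (1.72) reached 1.5 times in YZ6, Grb10 (3.05) in JM1564, and H19 (1.75), Ndn (3.09) and Zim1 (5.26) in JM833-T2. Some of these levels were low: Dlk1 was at 0.51 CPM in YZ6, and Ndn and Zim1 at 6.01 and 3.31 CPM in JM833-T2. Igf2 had a median under 0.1 CPM. Zim1 and Ndn were higher still, at 27.2 and 5.67 times, in JM833-T1, where Mest was at 0.999. The partner genes Rmnd5a, Immt, Copg1 and Chchd6 lie elsewhere on chromosome 6.

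**Figure D4:**
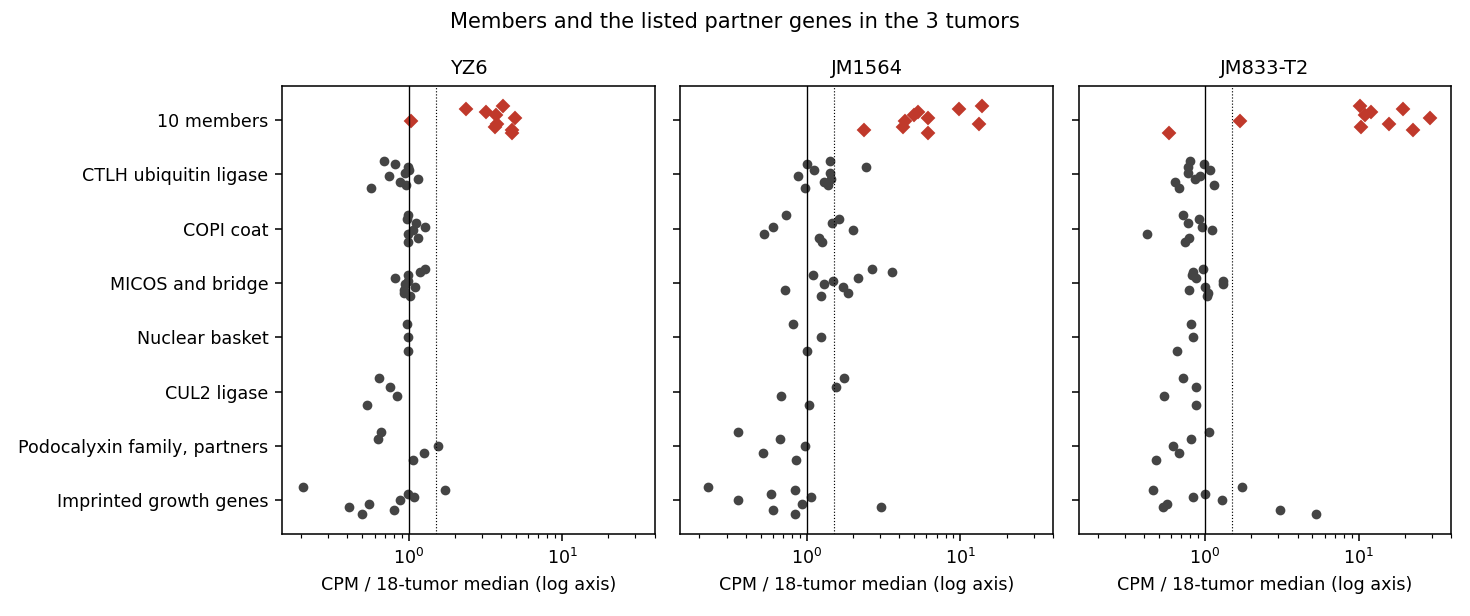
Ratio to the 18-tumor median (log axis) of the 10 members (red) and of the partner genes by list (gray points, 1 per gene) in YZ6, JM1564 and JM833-T2, with lines at 1 and 1.5. The partner lists gather around 1, with medians of 0.982, 1.10 and 0.835, while most members lie to the right.

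Other cell type and growth markers differed between the 3 tumors. The immune markers Ptprc, Cd68, Cd3e and Csf1r summed to 366 CPM in YZ6, 216 in JM1564 and 929 in JM833-T2, the first being the median of its genotype, the second the lowest of its genotype and the last the highest. Fibroblast markers summed to 4526, 2700 and 5440 CPM, basal markers to 230, 21.7 and 18.4 CPM, and luminal markers to 3334, 5725 and 1023 CPM. The proliferation genes Mki67, Top2a and Ccnb1 summed to 1257, 1423 and 1597 CPM, the last 2 the highest of their genotypes. That rank came from Mki67, and Top2a and Ccnb1 did not share it. They were at 481 and 63.0 CPM in JM1564 against 547 and 95.5 in RM0014. In JM833-T2 they were at 447 and 67.4 CPM against 725 and 136 in JM779-T1. Pericyte markers summed to 213, 317 and 234 CPM and muscle markers to 1.17, 3.77 and 2.84 CPM. Their part in the levels of the members was not tested.

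Whether genotype changed the members was tested with edgeR's quasi-likelihood test over all genes, with Benjamini-Hochberg adjusted p-values (FDR). The members had been chosen from the same values for standing high in single tumors of different genotype, which goes with a wide spread within genotypes. A lack of calls therefore cannot show that genotype left the members unchanged. Leaving out a raised tumor lowers its group for the members high in it. The choice of members and tumors thus set the direction of the shifts given below. No member was called at an FDR of 0.05 in MaP R172H/- against MaP -/- tumors, where 8.40% of 20954 genes were called, in MaP R245W/- against MaP -/- tumors, where 0% of 21452 were, or in MaP R172H/- against MaP R245W/- tumors, where 9.40% of 22481 were. In the R245W comparison 2527 genes had an unadjusted p under 0.05, and DESeq2 called 427 genes and no member. DESeq2 gave no adjusted p for 8 members there, so these could not have been called. The MaP -/- tumors enter the first 2 comparisons both.

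In MaP R172H/- against MaP -/- tumors 8 of 10 members were below 0 on the log2 fold change scale, with a median of -0.94 against 0.0027 over all genes tested. The smallest p-value was that of Chchd3, at 152 ± 128 CPM (SD, n = 7) against 71.6 ± 13.5 CPM (SD, n = 6), a log2 fold change of 1.11 (SE 0.375, FDR = 0.0852 from edgeR). Without YZ6 it was 0.56 (SE 0.158, FDR = 0.0534 from edgeR), and DESeq2 called it at 0.54 (SE 0.157, adjusted p = 0.00824). The default settings of DESeq2, used here, can replace outlying counts in a group of 7. Whether they replaced that of YZ6 was not checked. The log2 fold change of Zc3hc1 was -1.80 (FDR = 0.189 from edgeR), which became 0.25 (FDR = 0.743 from edgeR) without JM833-T2. Without that 1 tumor all 10 members were above 0 and their median was 0.85.

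In MaP R245W/- against MaP -/- tumors 6 of 10 members were below 0, with a median of -0.56 against 0.020 over all genes. That of Chchd3 was 1.47 (SE 0.487, FDR = 0.360 from edgeR), and without JM1564 it was 0.57 (FDR = 0.485 from edgeR). Mest was at 48.0 ± 35.4 CPM (SD, n = 5) against 19.8 ± 7.10 CPM (SD, n = 6), a log2 fold change of 1.27 (edgeR FDR = 0.384). Without JM833-T2 all 10 members were above 0 with a median of 1.35, and without JM1564 8 of 10 were below 0 with a median of -1.53.

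In MaP R172H/- against MaP R245W/- tumors 7 of 10 members were below 0, with a median of -0.40 against 0.0028 over all genes. That of Ube2h was -1.52 (FDR = 0.280 from edgeR) and 0.085 (FDR = 0.961 from edgeR) without JM1564, and Zc3hc1 one of -1.36 (FDR = 0.342 from edgeR) and -0.074 without it. For Mest the edgeR estimate was -0.79 (FDR = 0.442). It was -1.64 (edgeR FDR = 0.0383), and so called, when YZ7, the tumor with the most Mest, was left out. The median over the members was 0.52 without JM1564.

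**Figure D5:**
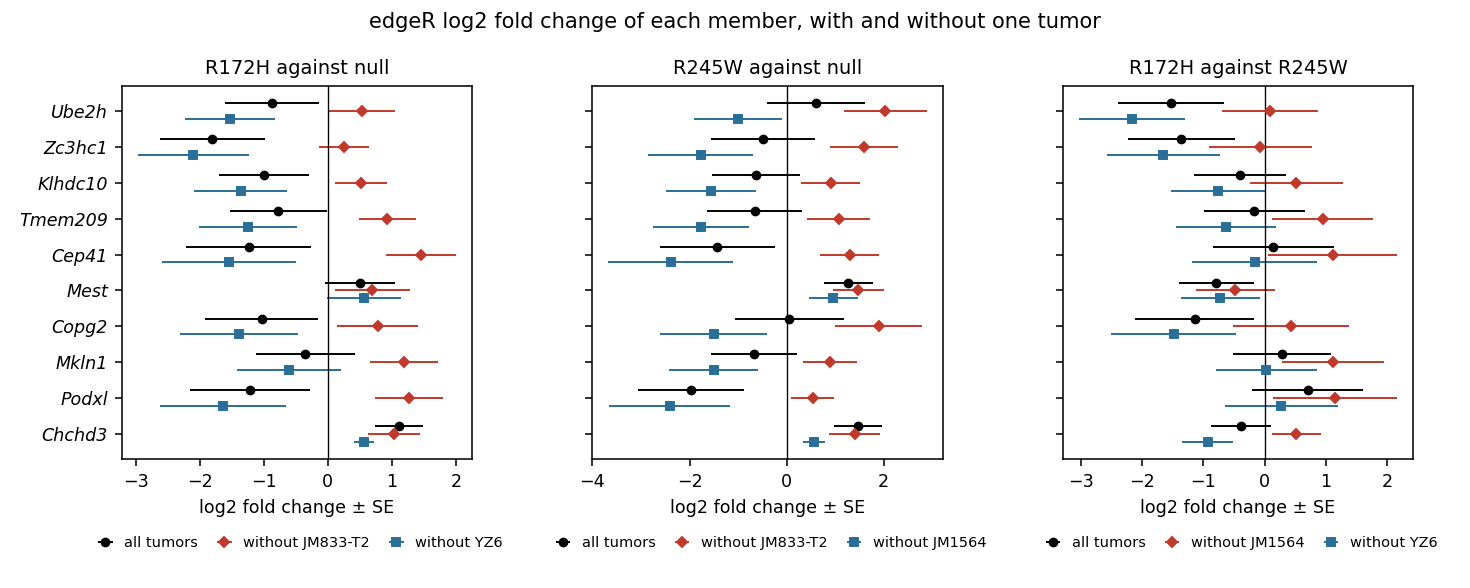
edgeR log2 fold change with its standard error for each member in the 3 genotype comparisons, with all tumors (black) and without a raised tumor of either group (red and blue). In the first 2 panels the red points, without JM833-T2, are all above 0, while 8 and 6 of the black points are below 0. JM833-T2 was picked for its high members, so the direction of this shift was set by that choice.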

How the data were processed

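Total RNA of each tumor was depleted of ribosomal RNA and sequenced in pairs (the labels name a stranded mRNA library). The authors aligned reads with STAR 2.7.10b to GRCm39, after FastQC 0.11.9, and RSEM 1.3.3 is also named in the submitters' processing notes. They deposited 1 table of whole-number counts per gene, with no normalization, which was used as deposited. Gene names and positions came from GENCODE M39 by identifier (56620 of 57126 genes matched).

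CPM used library sizes scaled by TMM over the 22481 genes that filterByExpr kept. Genotypes were compared with edgeR 4.0.16 (glmQLFit and glmQLFTest, filterByExpr, TMM), with 2 groups per fit, or all 18 tumors for R172H against R245W. The fit was tested on simulated data. Alternatives were DESeq2 1.42.0, other filters, scalings and fold limits, tumors of 1 mouse summed, and each tumor left out. Genes named were the members, the expressed genes of the interval, 5 neighbours on each side, listed partners and markers, and the 5 most alike genes on and off chromosome 6. The members and lists were chosen with earlier results of these data known. Replicates are separate tumors, and 2 pairs of MaP -/- tumors share a mouse, so p-values there measure spread between tumors rather than animals.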

Additional observations from a re-analysis of the deposited data

Results flagged for a closer look

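In 24 of 33 cases, over the CPM of each member and the members' median ratio in each genotype, the gap between the highest tumor and the next, as a share of the group's range, passed Dixon's 95% limit. Chance flags about 1 in 20 such groups, but the members were chosen for standing high in single tumors, so these gaps are a description and no test.

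In the 7 MaP R172H/- tumors YZ6 stood apart for Ube2h (0.87), Klhdc10 (0.581), Tmem209 (0.675), Chchd3 (0.87) and the members' median ratio (0.794). Mest was set apart there by YZ7 instead (0.849). In the 5 MaP R245W/- tumors JM1564 stood apart for Ube2h (0.894), Zc3hc1 (0.85), Klhdc10 (0.791), Tmem209 (0.828), Cep41 (0.796), Copg2 (0.848), Mkln1 (0.766), Chchd3 (0.831) and the median ratio (0.768). In the 6 MaP -/- tumors JM833-T2 stood apart for Ube2h (0.874), Zc3hc1 (0.956), Klhdc10 (0.897), Tmem209 (0.938), Cep41 (0.978), Copg2 (0.886), Mkln1 (0.934), Podxl (0.966) and the median ratio (0.946).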

How the results depend on the processing

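YZ6, JM1564 and JM833-T2 raised the block under DESeq2 size factors, total counts alone, a ratio of 2 and medians of other tumors of the same genotype, and RM0014 joined them at the lower ratio tried and against the median of the 6 MaP -/- tumors. With each tumor left out in turn, 2 to 3 tumors raised it. The median ratio of JM833-T2 went from 11.5 to 16.8 against the other tumors of its genotype. With genes of at least 5 CPM, JM1564 had 37.9% of 2 Mb windows at 1.5 times or more, against 27.4%.

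In the genotype comparisons 1 member was called by DESeq2 in R172H against null (Chchd3, log2 fold change 0.54; the cause was not tested), where an adjusted p was missing for 5 members (8 and 3 in the other comparisons). With each tumor left out, 0 members were called in either comparison with null and 0 to 1 in R172H against R245W (1 without YZ7). The members' median log2 fold change ran from -1.37 to 0.85 in R172H against null, from -1.53 to 1.35 in R245W against null and from -0.74 to 0.52 in R172H against R245W. That of Zc3hc1 ran from -2.10 to 0.25 in the first, and that of Ube2h from -2.17 to 0.085 in the third. Each reversal came without JM833-T2 or JM1564, which were picked for their high members, so its direction was set by that choice. No paired analysis was possible because no label pairs tumors of different genotype.

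With 5 to 7 tumors in a genotype and 1 raised tumor in each, single tumors set the means.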
